A study of Caenorhabditis elegans with 18 samples.

Results

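The 8 genes far-1 to far-8 of Caenorhabditis elegans encode fatty acid and retinol binding (FAR) proteins. They were taken as the genes with these names in the deposited annotation, which uses WormBase release 180, among probe sets assigned to a single gene. Each gene had 1 such probe set, so the family is 8 of the 22548 worm probe sets on the array and 8 of the 17603 genes with a probe set of their own. The family was selected on its fed and starved means, because far-7 was higher in starved than in fed larvae at every time. Fed against starved values of far-1 to far-8 are therefore given as a description, with no test. The probe sets of far-1 and far-3 are of a design that can share probes with other transcripts, so signal from another transcript cannot be told apart in these 2 genes.

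Messenger RNA of whole animals of the wild-type strain N2 was measured on Affymetrix arrays, and the 18 conditions had 3 arrays each. Larvae in liquid S-complete medium at 20 °C hatched with 25 mg/ml of the bacterium Escherichia coli HB101 or without food, and both arms were collected 0, 1, 3, 6, 12, 15 and 24 h after hatching. There were also embryos taken 2 h ahead of hatching, and hatchlings kept 3 h without food in M9, a plain salt buffer. The last 2 conditions switched food after 12 h for a final 3 h, one from none to food (starved and then fed) and one from food to none (fed and then starved). All are whole-population samples, with 50% of the animals hatched at 0 h, and the sample titles give fed larvae as first to second larval stage (L1-L2) at 15 h and as second stage (L2) at 24 h, so there stage differs together with food.

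Hatchlings without food arrest as first-stage larvae and live on stored reserves until food arrives. FAR proteins are small, mostly helical proteins found in nematodes that bind fatty acids and retinol and carry them in aqueous surroundings. Parasitic nematodes release members of the family into their hosts, while the roles of most C. elegans members are less well known. Sequence comparisons have grouped far-1, far-2 and far-6 together, far-3, far-4 and far-5 together, and far-7 with far-8, and the genes are described here in that grouping, beginning with far-7 and far-8. In the RefSeq gene table of assembly WBcel235, far-1 and far-2 lie on chromosome III with 0 protein-coding genes between them. In the same table far-5, far-3 and far-4 are direct neighbours on chromosome V, where far-5 and far-3 overlap. The gene far-8 lies elsewhere on chromosome III, far-6 on chromosome IV and far-7 on chromosome II.

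Values are the authors' mean intensity of 3 arrays on a linear scale, with the error of that mean as they deposited it. Detection also follows the authors, with a p of signal against background under 1e-10. Between 10873 and 12332 probe sets were detected in a condition, and the median error over detected probe sets was 8.82% to 10.7% of the mean. A total of 7 family members were detected in 13 or more conditions, and far-4 in 0 of 18. Fed and starved S-complete arrays shared 0 hybridization days, so food and day cannot be told apart in that contrast, while the M9 arrays shared all 3 days with the fed arrays. The array information marks the M9 arrays with a plus sign, as it does the fed ones. Over 15048 probe sets the M9 profile nevertheless correlated at r = 0.989 with starved and r = 0.915 with fed larvae at 3 h, and it is treated here as starved, as labelled.

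The gene far-7 had the widest range of measured means in the family, at least 79.7-fold from the lowest condition, embryos in which it was not detected, to the highest. In starved larvae its mean intensity was 399 ± 45.4 at 0 h, 730 ± 42.3 at 1 h, 1205 ± 63.9 at 3 h, 1608 ± 82.0 at 6 h, 1959 ± 97.7 at 12 h, 2240 ± 110 at 15 h and 2411 ± 118 at 24 h. In fed larvae at the same times it was 47.3 ± 7.50, 78.1 ± 17.2, 71.1 ± 12.3, 64.8 ± 8.81, 51.6 ± 7.84, 117 ± 12.2 and 63.5 ± 11.5. Every starved mean lay above every fed mean, so the arms did not overlap. Because the measurement is of whole animals, fewer cells of a type and less RNA per cell cannot be told apart in this or any later value.

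Starved larvae held 8.44-fold more far-7 signal than fed larvae at 0 h, 16.9-fold more at 3 h and 38.0-fold more at 12 h. At 15 h the ratio was 19.1, as the fed mean at that time was the highest of the fed arm, and at 24 h it was 38.0 again. These ratios correspond to log2 differences, fed minus starved, between -5.25 and -3.08 with a median of -4.26. Ranked by the mean of the 7 differences, far-7 was the 4th most lowered of 22548 probe sets, and 3362 probe sets were lower in fed larvae at all 7 times. These values chose the family. In the same contrast, fitted over the 7 times with limma, 30.3% of all probe sets passed the threshold of 0.05.

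In the order of the 18 far-7 means, starved larvae came first from 24 h down to 3 h, followed by M9 and then starved larvae at 1 and 0 h. Next were larvae fed and then starved, fed larvae at 15 h, the other fed larvae together with larvae starved and then fed, and last the embryos. Of the 17 gaps between neighbours in this order, 6 were within the combined error of the neighbouring means, all of them among the 5 lower fed time points from 1 h, larvae starved and then fed, and fed larvae at 0 h.

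**Figure D1:**
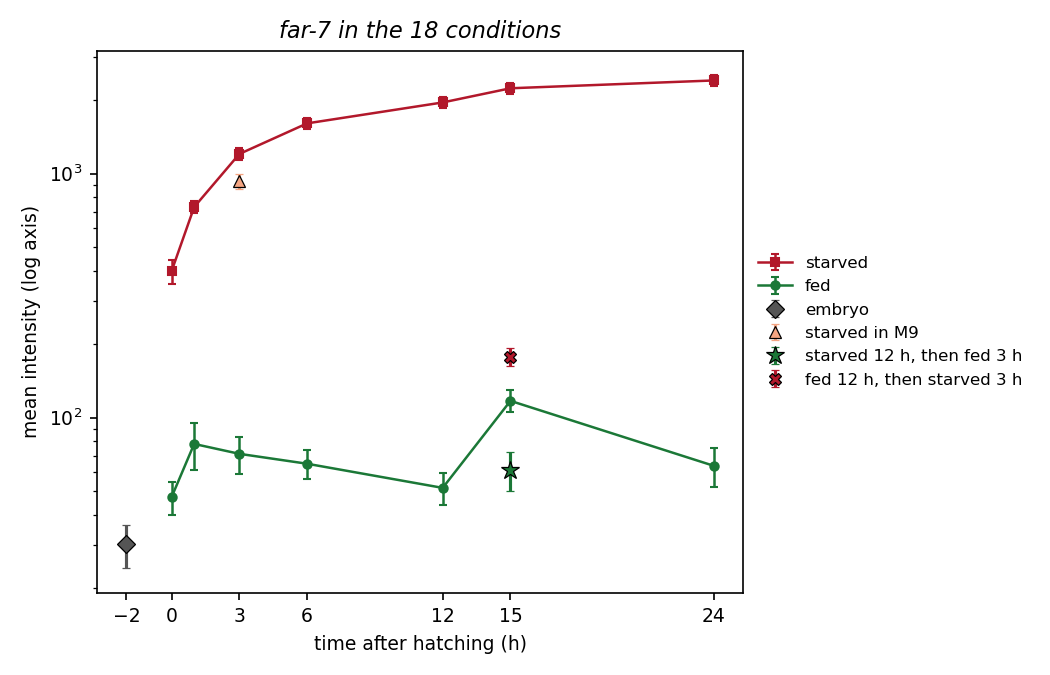
Mean intensity of far-7 (log axis) against time after hatching in hours, with the authors' error of each mean as bars; red squares are starved and green circles fed larvae in S-complete, and single marks are the other 4 conditions. The starved line climbs from 399 to 2411 while fed larvae stay between 47.3 and 117, and larvae fed for 3 h after 12 h of starvation sit at 61.1.

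The gene far-8 followed the same order at every time but with smaller differences that closed with age. Its mean intensity in starved larvae went from 111 ± 22.2 at 0 h through 246 ± 23.0 at 3 h to 463 ± 35.7 at 12 h and 435 ± 34.1 at 24 h. In fed larvae it was 33.7 ± 7.63 at 0 h, which was not detected, 97.6 ± 13.1 at 3 h, 268 ± 24.3 at 12 h and 415 ± 38.6 at 24 h. The fed minus starved log2 difference was -1.72 ± 0.44 at 0 h and -0.07 ± 0.18 at 24 h, with a median of -0.79 over the 7 times. It exceeded its combined error at 6 of 7 times, and the arms overlapped because fed larvae at late times reached the levels of starved larvae at 3 h and beyond.

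The other members did not share this direction at every time. For far-2 the fed mean was below the starved mean at 0 h (358 ± 59.9 against 513 ± 40.4) and above it from 3 h on, up to 3797 ± 226 against 622 ± 46.8 at 24 h, 6.10-fold higher. For far-6 the arms were within their combined error up to 6 h, and fed larvae were higher at 12, 15 and 24 h, where the means were 291 ± 19.1 with food and 173 ± 18.8 without. The mean of far-1 lay between 4657 and 6535 in starved larvae and between 5370 and 6538 in fed larvae, and its differences at the 7 times were between -0.06 and 0.22 on the log2 scale. The family median of the 7-time mean difference was 0.09, against -0.01 over the 15048 probe sets detected in at least 1 condition.

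Among the neighbouring genes of chromosome V, far-3 crossed over with age. Fed larvae had less far-3 signal at 3 h (240 ± 52.0 against 672 ± 109) and more at 12 h (550 ± 93.4 against 162 ± 40.7) and 24 h (1745 ± 415 against 390 ± 72.4). Its errors were large, from 16.2% to 45.0% of the mean, and 15 of the 17 gaps in its order of conditions were within error. The gene far-5 was detected in 13 conditions, with all means between 16.7 and 49.2, and no gap between neighbours in the order of its 18 means was larger than the combined error. Its mean was lower in fed larvae at 6 of 7 times, beyond the combined error at 0, 15 and 24 h, where the log2 differences were -0.48, -0.61 and -0.87. For far-4, means ran from 5, the floor set by the authors, to 53.1 ± 31.4 in fed larvae at 24 h, with no detected value in either arm.

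**Figure D2:**
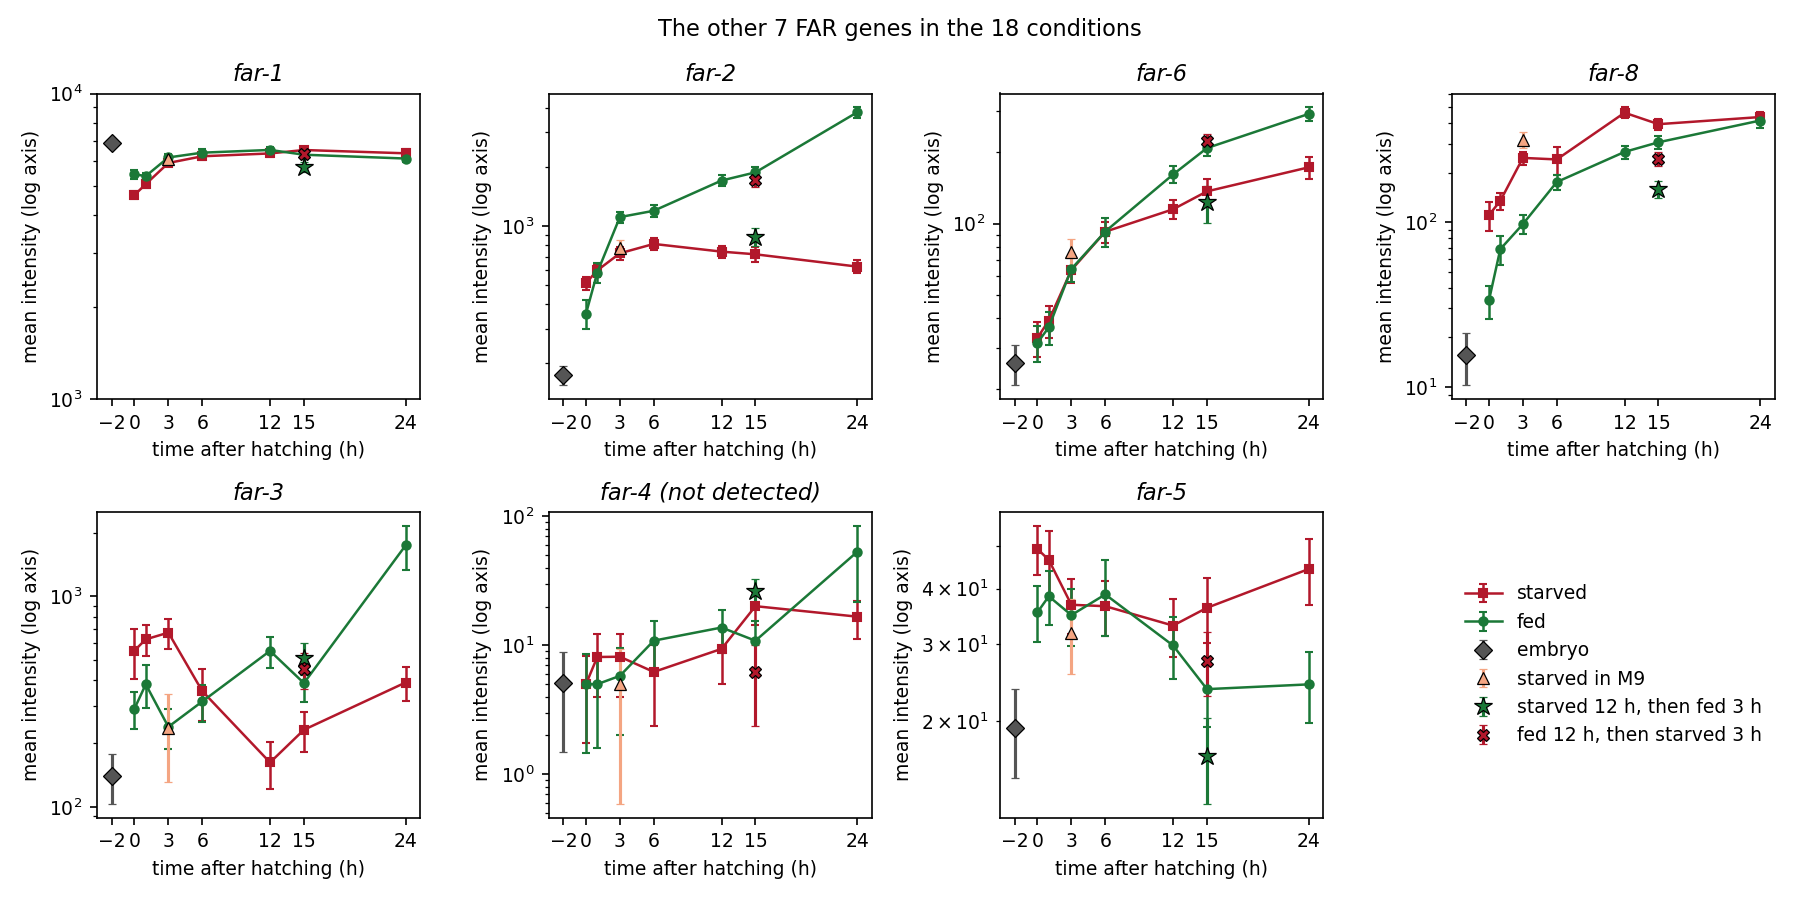
Mean intensity (log axis, scaled separately for each gene) of the other 7 FAR genes against time after hatching in hours, with marks and error bars as for far-7. Fed far-2 climbs to 3797 while starved far-2 stays between 513 and 811, and far-6 and far-8 climb in both arms.

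**Figure D3:**
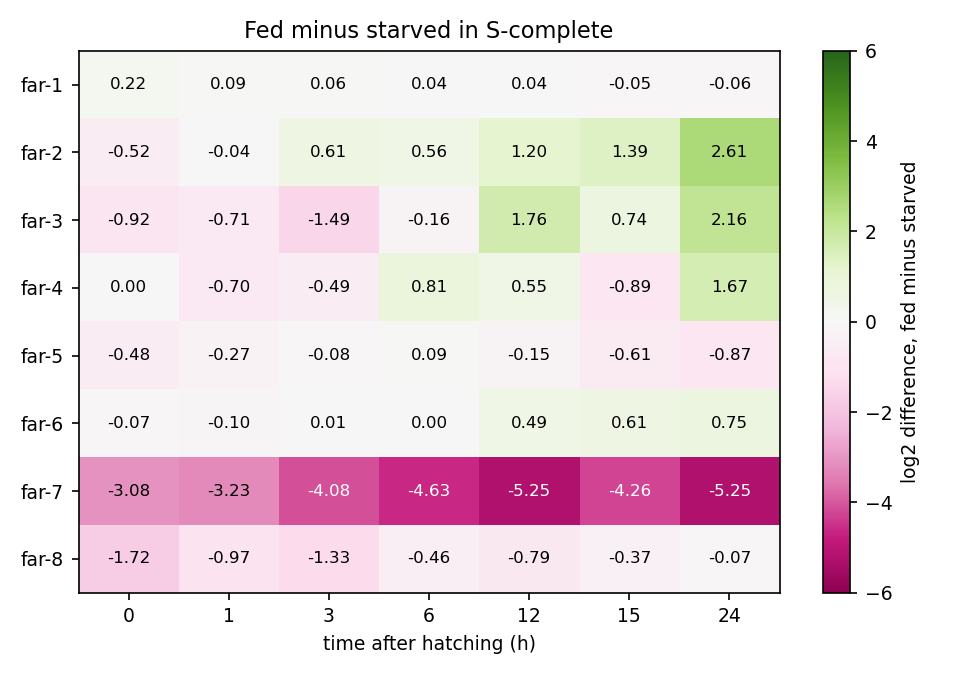
Log2 difference in mean intensity, fed minus starved, for each FAR gene (rows) at each time after hatching in hours (columns), with the value printed in each cell. The row of far-7 runs from -5.25 to -3.08, far-8 is below 0 throughout, and far-2 ends at 2.61.

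The M9 samples give a fed against starved value within shared hybridization days at 3 h, though in another medium. The log2 difference of fed larvae minus M9 larvae was -3.71 ± 0.27 for far-7, with means of 71.1 and 931, beside -4.08 ± 0.26 against S-complete larvae. For far-8 it was -1.70 ± 0.25, beside -1.33 ± 0.24, and for far-2 it was 0.52 ± 0.17, beside 0.61 ± 0.14. For far-3 it was 0.01 ± 0.72, beside -1.49 ± 0.39, and far-3 was not detected in M9. For far-1 it was 0.02 ± 0.06, beside 0.06 ± 0.05, and far-4, far-5 and far-6 differed by no more than their error in either medium.

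Set against each other directly, the media gave no call for any FAR gene that was tested, which leaves out far-7. The M9 arrays and the starved S-complete arrays of 3 h shared 0 hybridization days, so medium and day cannot be told apart here. Per the authors' deposited table of p-values, adjusted here by the Benjamini-Hochberg method, 0 of 22548 probe sets (0%) passed 0.05, and 718 had an unadjusted p below it. The recomputed test from the deposited errors also called 0. On the log2 scale, M9 minus S-complete, the difference was 0.37 ± 0.20 for far-8 and -1.50 ± 0.69 for far-3. For far-7 it was -0.37 ± 0.12, given without a test because its starved mean at 3 h also chose the family.

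The time course within each arm uses a contrast other than food. A slope of log2 mean intensity on log2(h + 1) was fitted with limma over the 7 times, so the scatter around the line, not the spread between cultures, sets its error. The far-7 means at these times are among the values that chose the family, so its slopes are given without a test. In starved larvae 3 of the other 7 FAR genes rose and 0 fell, where 15.8% of all probe sets rose and 16.6% fell. The slope per unit of log2(h + 1) was 0.54 ± 0.03 for far-6 (limma adjusted p = 0.000716) and 0.47 ± 0.05 for far-8 (adjusted p = 0.0026), and for far-7 it was 0.55 ± 0.05. At 24 h these genes were at 5.25-, 3.93- and 6.05-fold their level at 0 h. The slope of far-1 was small, 0.11 ± 0.02 (adjusted p = 0.00697), and the median slope of the family was 0.23 against 0.00 over detected probe sets. With plain hours in place of log2(h + 1), far-1 no longer passed (limma adjusted p = 0.11). The gene far-3 had a slope of -0.31 ± 0.14 that did not pass (adjusted p = 0.139), and far-2, far-4 and far-5 did not pass either.

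In fed larvae 3 of the other 7 FAR genes rose and 0 fell, where 5.86% of all probe sets rose and 10.0% fell. The slopes were 0.77 ± 0.03 for far-8 (limma adjusted p = 0.00118), 0.73 ± 0.05 for far-6 (adjusted p = 0.00291) and 0.65 ± 0.06 for far-2 (adjusted p = 0.00443). At 24 h far-8 was at least 12.3-fold its level at 0 h, when it was not yet detected, and far-6 and far-2 were at 9.26- and 10.6-fold theirs. The slope of far-7 with food was 0.09 ± 0.10. Since the titles give a mix of first and second stage at 15 h and the second stage at 24 h, the fit was repeated on the 5 times up to 12 h, an alternative chosen after seeing the data, and far-8, far-6 and far-2 passed there too (limma adjusted p = 0.0185, 0.0254 and 0.0268). Thus far-6 and far-8 rose in both arms, while whether slopes differed between arms was not tested.

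Around hatching, the means of most members were higher in larvae than in embryos, while far-1 was lower. Embryo intensities were 30.2 ± 6.07 for far-7, 15.7 ± 5.50 for far-8 and 25.8 ± 5.02 for far-6, none of them detected, and 174 ± 19.3 for far-2 and 140 ± 37.3 for far-3. Against larvae hatched without food, which shared all 3 hybridization days with the embryos, far-7 was at least 13.2-fold higher at 0 h and far-8 at least 5.61-fold, where "at least" sets the embryo at no less than the lowest detected signal on its arrays. The far-7 level at 0 h is also among the values that chose the family and gets no test. The far-8 difference did not pass over all probe sets from the authors' deposited table of p-values (adjusted p = 0.0702). Over detected probe sets alone, the adjusted p was 0.0424 for far-8 and 0.033 for far-2, from the same deposited table of the authors. In that adjustment 1891 of 13298 detected probe sets passed 0.05. The gene far-2 was 2.95-fold higher, from 174 to 513 (adjusted p = 0.0547 over all probe sets of the authors' deposited table).

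Of the 7 FAR genes tested, the only one that passed at hatching without food was far-1, where 2.40% of probe sets did. It fell from 6876 ± 175, the highest level of any of its conditions, to 4657 ± 145, its lowest, a log2 difference of -0.56 ± 0.06 (adjusted p = 0.0425 from the authors' deposited table). After quantile normalization of the means the far-1 difference was -0.32. With food, 0 of 22548 probe sets (0%) passed between embryo and 0 h from the authors' deposited table, and 3656 had an unadjusted p under 0.05. There the log2 difference was -0.34 ± 0.06 for far-1 (adjusted p = 0.157 from the authors' deposited table), and 0 hybridization days were shared. The far-7 difference, given without a test, was 0.64 ± 0.37.

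Food given to arrested larvae was followed by low far-7 signal within 3 h. The arrays of larvae starved and then fed shared 0 hybridization days with the uniformly starved or fed arrays. Feeding and day can therefore not be told apart in these comparisons. Larvae with 12 h of starvation followed by 3 h of food had a far-7 mean of 61.1 ± 11.0, against 1959 ± 97.7 at 12 h without food and 2240 ± 110 at 15 h. This was 32.1-fold lower than at 12 h and 36.7-fold lower than at 15 h (log2 difference -5.20 ± 0.27 for the latter), and it is given without a test because the starved means also chose the family. It lay within the error of larvae that had food from hatching and were 3 h old (71.1 ± 12.3). The far-8 mean was also lower, 159 ± 18.6 against 463 ± 35.7 at 12 h (log2 difference -1.54 ± 0.20). That far-8 difference did not pass with the authors' deposited p (adjusted p = 0.0878) and passed when recomputed from the deposited errors with 4 degrees of freedom (adjusted p = 0.0444).

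The single FAR call after feeding was far-5, where 3.21% of probe sets passed against the 12 h starved larvae. Its mean was 33.0 ± 4.96 before and 16.7 ± 3.70 after feeding, when it was not detected, so far-5 was at least 1.61-fold lower (adjusted p = 0.0434 from the authors' deposited table). The call was lost in the recomputed test (adjusted p = 0.239 from the deposited errors). Here too, feeding and hybridization day cannot be told apart. Against starved larvae of the same age, 15 h, 2.04% of probe sets passed and 0 of the 7 FAR genes tested did, by the authors' deposited table. The mean of far-3 was 162 ± 40.7 before and 509 ± 88.2 after feeding, which did not pass (adjusted p = 0.161 from the authors' deposited table). The genes far-2 and far-6 stayed near their starved values, at 882 ± 90.9 and 123 ± 21.9.

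After 3 h without food, larvae with a fed start had less far-7 signal than larvae starved from hatching for as long. Larvae with 12 h of food followed by 3 h of starvation had a far-7 mean of 178 ± 15.6, against 51.6 ± 7.84 before removal and 117 ± 12.2 in fed larvae of 15 h. These are log2 differences of 1.79 ± 0.25 and 0.60 ± 0.20, given without a test. The arrays of larvae fed and then starved shared 0 hybridization days with the uniformly fed or starved arrays. Food removal and day can therefore not be told apart here. Larvae starved for 3 h from hatching had 1205 ± 63.9 in S-complete and 931 ± 63.0 in M9, but they differed in age as well. By the authors' deposited table, 0 of the other 7 FAR genes passed against either fed time, where 0.0266% and 0.00443% of probe sets did. The far-2 mean was 1710 ± 124 after removal and 1707 ± 109 before it.

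The opposite food histories were compared directly, with neither condition used to choose the family and all 6 arrays hybridized on 1 shared day. In larvae starved and then fed, far-7 was 61.1 ± 11.0 against 178 ± 15.6 in larvae fed and then starved, a log2 difference of -1.54 ± 0.29 (adjusted p = 0.0578, difference of means over the deposited errors, all probe sets). For far-2 the log2 difference was -0.95 ± 0.18, with means of 882 and 1710, for far-6 it was -0.86 ± 0.28 and for far-8 -0.61 ± 0.22. None of the 8 genes passed, where 4.48% of probe sets did. When the adjustment ran over the 12926 probe sets detected in either condition, far-7 (adjusted p = 0.0331 from the deposited errors) and far-2 (adjusted p = 0.0387) passed. In that adjustment 2783 of the 12926 probe sets passed. The family median was -0.66, against 0.02 over detected probe sets.

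Summed signals of tissue markers also differed between these histories, and the sums carry no error or test. The summed intensity of 7 muscle markers was 4667 in larvae starved and then fed and 8202 in larvae fed and then starved, and that of 8 intestine markers was 10098 and 11970. Uniformly starved larvae of 15 h had 8476 for muscle and 9075 for intestine, and uniformly fed larvae of 15 h had 8399 and 11889. The sum of 7 hypodermis markers was 925 in larvae starved and then fed and 1991 in larvae fed and then starved. Markers of the early embryo, of which 4 of 10 were ever detected, summed to 998 and 224. In uniformly starved and uniformly fed larvae of 15 h the hypodermis sums were 1056 and 1386, and the early embryo sums 423 and 280. Between the opposite histories, single markers of a tissue went both ways on the log2 scale. In the hypodermis rol-6 was at -5.57 and elt-3 at 0.89, and in the intestine ges-1 was at -3.41 and act-5 at 0.36. In the direct test 1 of 7 muscle, 1 of 8 intestine, 0 of 7 hypodermis and 0 of 10 early embryo markers passed, where 4.48% of probe sets did. The part of these marker differences in the FAR values was not tested.

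With the uniformly fed and starved larvae of 15 h, the 4 histories allow the effect of food in the last 3 h to be compared between both starts. For far-8, food in the last 3 h went with a log2 difference of 0.34 ± 0.19 after a fed start (306 ± 26.6 with and 242 ± 24.0 without) and of -1.31 ± 0.21 after a starved start (159 ± 18.6 with and 394 ± 31.7 without). These effects differed by 1.65 ± 0.28 on the log2 scale (adjusted p = 0.0346, contrast over the deposited errors with 8 degrees of freedom, all probe sets), where 2.07% of probe sets passed. The highest far-8 mean of the 4 was in larvae never fed and the lowest in larvae just fed. For far-7 the effects were -0.60 ± 0.20 and -5.20 ± 0.27, and their difference of 4.60 ± 0.33 is given without a test, since it rests on the starved mean that chose the family. None of the other 6 members passed, and far-3 had the next largest size among the detected genes, -1.35 ± 0.56 (adjusted p = 0.335 from the same contrast). The 4 conditions came from 3 sets of hybridization days, with the uniform feeding and the uniform starvation each on days of their own. Both conditions in which food was switched were on 1 shared day, and they shared 0 days with the uniform conditions. Day and the difference between starts can therefore not be told apart in this contrast, for far-8 or any other gene.

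**Figure D4:**
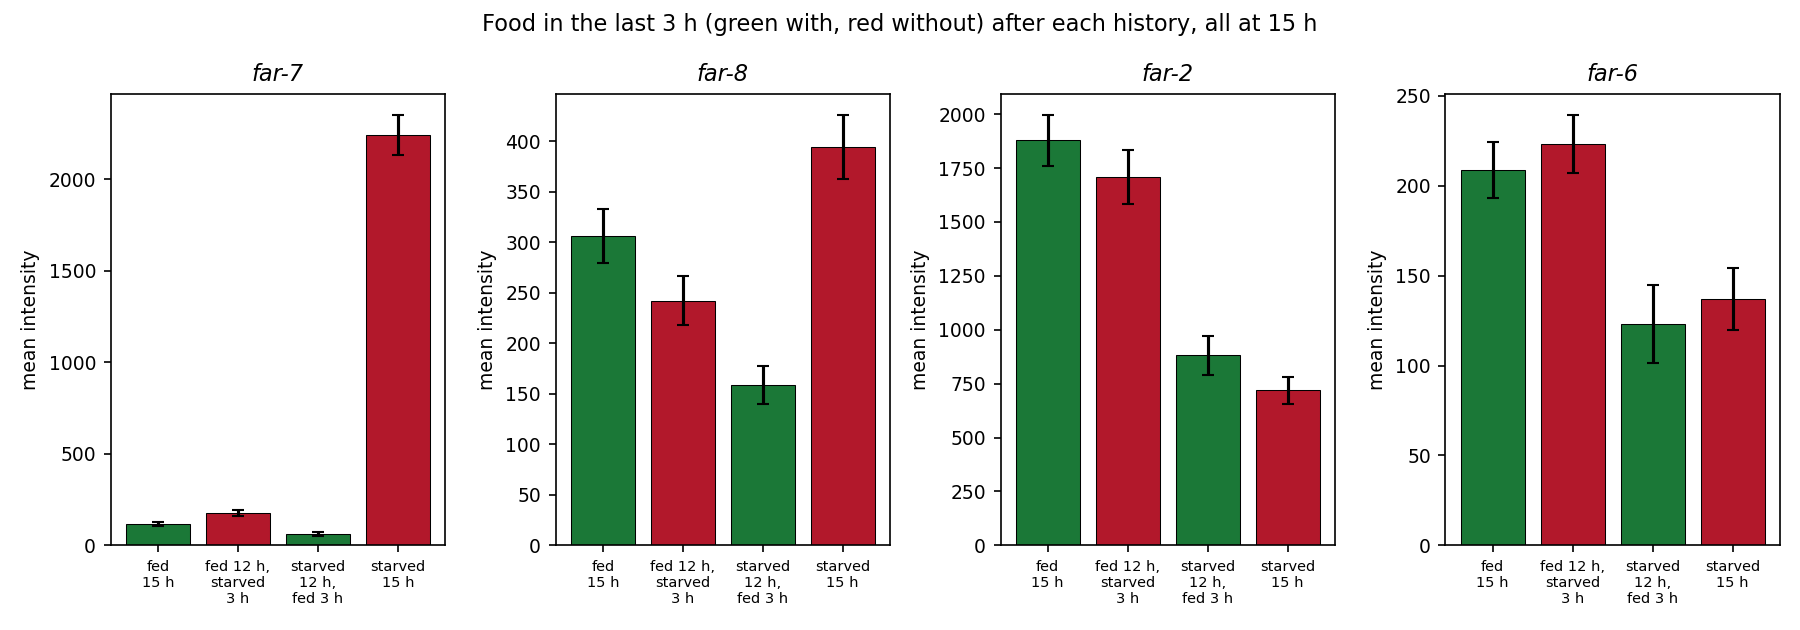
Mean intensity at 15 h after each history for far-7, far-8, far-2 and far-6, on linear axes from 0, with the authors' error of the mean as bars; green bars had food in the last 3 h and red bars did not. For far-7 only larvae never fed stand high, at 2240, while far-2 and far-6 are higher in both histories that began with food.

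The profiles of the members over the 18 conditions were compared with each other. On log2 means, Pearson's r was 0.83 between far-2 and far-6, 0.81 between far-6 and far-8, 0.60 between far-7 and far-8 and -0.11 between far-7 and far-2. These correlations describe 18 means that share arrays across genes and times of 1 series, and carry no test. The neighbouring genes far-1 and far-2 had r = 0.22.

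Among 7490 genes with a public name and a detected probe set of their own, the profile most like far-7 was that of hil-1, a linker histone H1 gene, with r = 0.99. Next were aldo-2, a fructose-bisphosphate aldolase (0.98), plpp-1.1, a phospholipid phosphatase (0.98), chil-16, a chitinase-like gene (0.97), and pals-31 (0.97). While aldo-2 and plpp-1.1 were detected in all 18 conditions, hil-1 was detected in 11, pals-31 in 8 and chil-16 in 7. The r of these last 3 genes rests in part on values that were not detected. The mean intensity of hil-1 was 884 in starved larvae of 15 h, 35.4 in fed larvae of that age, 27.2 in larvae starved and then fed and 74.4 in larvae fed and then starved. The same 4 values were 5779, 2939, 2544 and 3275 for aldo-2, which has the order of far-7 over a narrower range.

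For far-8 the nearest profiles were ugt-23, a UDP-glucuronosyltransferase, and alh-8, an aldehyde dehydrogenase, both at r = 0.96. For far-2 they were lcmt-1, a carboxyl methyltransferase (0.97), and cpg-9 (0.94), and for far-6 sec-31, of the COPII vesicle coat (0.97), and lbp-9, another fatty acid binding protein (0.95). The nearest for far-1 were sel-5, a kinase, and rab-5, an endosomal GTPase (both 0.81), and for far-5 zipt-16, a zinc transporter family gene (0.90), and hrg-9 (0.87). Those of far-3, clpp-1, a mitochondrial protease subunit (0.74), and ugt-64 (0.73), were less close, and those of far-4, drh-1 and cogc-2 (0.83 and 0.82), rest on values that were not detected for far-4.

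Other lipid carriers were set beside the family through the limma fit of fed against starved over 7 times, in which 13.5% of probe sets were higher and 16.8% lower in fed larvae. Of 17 carriers named lbp, acbp, maa or ncr, 3 were higher and 3 lower. They included the fatty acid binding protein genes lbp-1, lower by a log2 difference of -1.90 (limma adjusted p = 0.00377), and lbp-4, higher by 0.81 (adjusted p = 0.00697), and the acyl-CoA binding gene maa-1 at -0.96 (adjusted p = 0.00884). Of 9 genes for extracellular carriers and their handling, 0 were higher and 2 lower, the yolk protein gene vit-3 at -0.86 (limma adjusted p = 0.0103) and nrf-5, a lipid-binding gene, at -0.84 (adjusted p = 0.00108). The far-7 mean difference over the same 7 times, -4.25, was the value that chose the family and is not set against these by a test.

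Lipases, which free the fatty acids that such proteins bind, were lower in fed larvae for 5 of 10 genes and higher for 1. The lowest were the lysosomal-type lipases lipl-3 at -3.04 (limma adjusted p = 0.035), lipl-4 at -2.02 (adjusted p = 0.0184) and lipl-1 at -1.91 (adjusted p = 0.0298). The fed means of lipl-3 did not change with time (slope 1.3e-16), as for values held at the floor of 5. The size of its difference therefore depends on that floor. Within starvation, where 15.8% of all probe sets rose with time and 16.6% fell, 5 of 10 lipases rose and 0 fell, led by lipl-3 with a slope of 1.38 per unit of log2(h + 1) (limma adjusted p = 0.00214). At 0 h lipl-3 was level with embryos in both arms (log2 difference 0), so this slope also depends on the floor. In the same fit and beside the same shares, 4 of the 17 lbp, acbp, maa and ncr carriers rose and 5 fell. Of the 9 genes for extracellular carriers and their handling, 1 rose and 5 fell. With food, where 5.86% of all probe sets rose and 10.0% fell, 5 of the 17 lbp, acbp, maa and ncr carriers rose and 1 fell.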

How the data were processed

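The study measured 18 conditions of whole N2 animals on 54 one-colour arrays. Intensity values are the authors' means of 3 biological replicates per condition on a linear scale, per the file headers, with means below 5 raised to 5. Error values were deposited in the same intensity unit; no source used here gives their formula, the array software or the normalization. The deposited detection score is a p of signal against background, per the file headers. The authors' deposited p-value columns compare pairs of conditions. Because each deposited value is a mean, the spread between cultures enters only through these errors and p-values, and the number of arrays limits the precision.

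Of 22625 probe sets, 77 controls were left out. Names come from the deposited release 180 annotation, updated through RefSeq and the platform annotation; 19751 probe sets had a current symbol, and 227 whose sources disagree were left unnamed.

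Log2 values were taken of the deposited means with no pseudocount, and differences carry errors propagated from the authors' errors. "Within error" means a difference no larger than the combined error. Pairs used the authors' p-values or, for the opposite histories, the difference of linear means over the deposited errors with 4 degrees of freedom; the history contrast had 8. Trends and the 7-time food contrast (time as a factor) used limma 3.58.1 in R 4.3.3. All p-values were adjusted by Benjamini-Hochberg over 22548 probe sets, with a threshold of 0.05. Where a group was not detected, folds use the higher of its value and the lowest detected signal.

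All 8 FAR genes are named. The 5 profiles most like far-7, the 2 most like each other member, and up to 3 called genes per lipid list are named by size. The members and lists were chosen with earlier results of these data known. Several pairs share a condition with the choosing contrast; far-7 is tested only in the opposite histories, which do not, although tests of its trends and of hatching were planned. Alternatives were quantile normalization, a floor of 20, detected probe sets alone, recomputed p-values, linear means, plain hours and each time left out. The scripts were tested on simulated data. Sequences were not used here.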

Additional observations from a re-analysis of the deposited data

Results flagged for a closer look

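The effect of food in the last 3 h on far-8 at 15 h differed between larvae with a fed and with a starved start, by 1.65 ± 0.28 on the log2 scale (adjusted p = 0.0346 over all probe sets, contrast over the deposited errors). The far-8 mean was 306 with continued food and 242 after removal, but 159 after feeding and 394 with continued starvation. On linear means the adjusted p of far-8 was 0.0233 in the same contrast. Both conditions in which food was switched were hybridized on 1 shared day, and they shared 0 days with the uniform conditions. Day and this far-8 difference can therefore not be told apart.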

How the results depend on the processing

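Of 482 alternative values for 144 single-gene results, 454 kept their side of the threshold or moved by less than the error. For tested pairs of conditions the p-value was not recomputed after quantile normalization. Those values could leave the 454 only by a change of sign, so their calls were not put to that alternative. In 9 alternative values the sign changed, all for differences or slopes that had not passed or had no test. With quantile normalization these were far-2 in removal against 12 h (from 0.00275 to -0.0239), far-1 in removal against 15 h (from 0.00638 to -0.0331), and fed minus starved for far-1 at 12 h (to -0.06) and far-6 at 3 and 6 h (to -0.07 and -0.05). On linear means the history contrast was 4.33 for far-2, -1.64 for far-4 and -0.67 for far-6, in units of intensity and of the other sign than on log2. The fed slope of far-7 was -0.0128 to 0.138 with 1 time left out, below 0 without 0 h. Over detected probe sets alone, calls went from 1010 to 2783 for the opposite histories, from 542 to 1891 for hatching without food, from 724 to 2032 and from 460 to 1472 for feeding against 12 and 15 h, from 6 to 13 for removal against 12 h and from 466 to 839 for the history contrast, as fewer tests enter the adjustment. Recomputed from the deposited errors, feeding against 12 h gave 1175 calls and removal gave 0 against 12 h (from 6) and 0 against 15 h (from 1). On linear means the history contrast gave 855. The fed trend gave 3581 calls, 2221 with plain hours, 2282 with a floor of 20 and 967 to 3580 with 1 time left out, lowest without 0 h and 1101 without 1 h. The starved trend gave 7301 calls and 4725 to 7273 with 1 time left out, lowest without 1 h; the cause was not tested. No time left out ended a trend call of the other FAR genes, while far-4 (starved without 6 h, fed without 15 h) and far-5 (starved without 24 h) gained one. With plain hours far-4 in both arms and far-5 in the fed arm also gained one. The mean difference of far-7 over 7 times was -4.25, and -4.30 after quantile normalization. No paired analysis was possible because the deposited values are 1 mean per condition, which also left no single array to leave out. Averaging all probe sets of a gene gave nothing further, since each FAR gene has 1. Protein and promoter comparisons were not run. The far-4 values were not detected in any condition, so their order is not read.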
